A study of Rattus norvegicus with 18 samples.

Results

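DNA methylation and chromatin regulators were followed in rat brain through 7 genes, namely the DNA methyltransferases Dnmt3a and Dnmt1, the chromatin remodeller Atrx, the SET-domain gene Setd5 and the histone deacetylases Hdac2, Hdac3 and Hdac5. All probe sets whose single gene symbol in the array's annotation was one of these genes were taken. This gave 16 probe sets of 7 genes, out of 31099 probe sets and 14218 named genes on the array. Atrx had 6 probe sets, Setd5 had 3, Dnmt3a and Hdac5 had 2 each, and Dnmt1, Hdac2 and Hdac3 had 1 each. The genes were chosen with measured values of these arrays in view. Which values chose them is not recorded, and the log2 differences between stress and handling were treated as the ones selected on. For the members those differences are a description: a member said to be called passed the threshold in the fit over all probe sets, and such calls support nothing about genes chosen for them. The differences between brain regions were tested.

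Total RNA had been measured on 18 Affymetrix rat arrays, 3 for each of 6 groups. The groups were amygdala, hippocampus and cortex of rats under chronic immobilization stress (restraint repeated over time, on a schedule the labels do not give) and the same 3 regions of rats that were handled without stress. The labels give no strain, sex or age, and do not tell separate animals from repeat arrays of 1 sample. Errors and p-values below therefore cover array-to-array spread within a group, which may be technical.

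DNA methylation in mammals is written on cytosines that precede guanines. Dnmt3a places new methyl groups and remains active in mature neurons, whereas Dnmt1 copies existing methylation after DNA replication. Atrx is an ATPase of the SNF2 family that works with Daxx to load the histone variant H3.3 into heterochromatin, and mutations of its human counterpart cause an X-linked syndrome with intellectual disability. SETD5 mutations in humans also cause intellectual disability. Hdac2 and Hdac3 are nuclear class I deacetylases that work within corepressor complexes, and Hdac5 is a class IIa deacetylase that leaves the nucleus when calcium-dependent kinases phosphorylate it.

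The promoters of Dnmt3a and Atrx are shown because these were the genes whose tested probe sets all lay lower in the stress amygdala, and because the CG dinucleotide is the site that the methyltransferases modify. The sequences are from RefSeq on build GRCr8, run from 250 bases before to 50 bases after the annotated start, and have each CG in capitals. Dnmt3a lies at chr6:32598352-32598651 on the + strand and Atrx at chrX:75062831-75063130 on the - strand.
Dnmt3a: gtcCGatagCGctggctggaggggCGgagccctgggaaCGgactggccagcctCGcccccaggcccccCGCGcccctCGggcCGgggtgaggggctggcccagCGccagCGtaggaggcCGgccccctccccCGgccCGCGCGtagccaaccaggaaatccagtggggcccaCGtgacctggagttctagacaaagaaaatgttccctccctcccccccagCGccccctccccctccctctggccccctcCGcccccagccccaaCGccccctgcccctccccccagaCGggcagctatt
Atrx: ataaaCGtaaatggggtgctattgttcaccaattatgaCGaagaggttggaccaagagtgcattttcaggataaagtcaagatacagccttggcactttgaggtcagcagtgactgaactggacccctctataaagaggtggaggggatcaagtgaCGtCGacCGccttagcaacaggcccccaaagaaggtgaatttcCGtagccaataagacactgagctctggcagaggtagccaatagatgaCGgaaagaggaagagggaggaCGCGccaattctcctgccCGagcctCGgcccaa
The Dnmt3a window held 21 CG dinucleotides at 74.3% G and C, and the Atrx window held 11 at 50.7%. Promoters were matched for 6 of the 7 genes, and the other windows held 17 (Dnmt1), 33 (Hdac2), 26 (Hdac3) and 22 (Hdac5), against a median of 7 over 33469 rat promoters of the same length. Motifs were searched on both strands. The E-box CACGTG was present in Dnmt3a and Hdac5 and in 6.42% of all promoters. The GC box GGGCGG was present in every matched member but Atrx and in 33.06% of all promoters. The core sequence TGACG of the cyclic AMP response element, which is part of the full site TGACGTCA, occurred 3 times in Atrx and 2 times in Hdac5 and was held by 21.2% of promoters, while no member held the full site (1.83% of promoters). The palindromic glucocorticoid response element was in no member and in 0.01% of promoters.

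Intensities are on a linear scale, as deposited, and 14 of the 16 probe sets passed a filter that kept the probe sets with a mean at or above the 40th percentile. The probe set 1384742_at of Atrx and the probe set 1390438_at of Hdac5 did not pass and were not tested. Differences are log2 differences of the intensity plus 16, with standard errors from limma fitted over all 18625 probe sets that passed, and a probe set was called at a Benjamini-Hochberg adjusted p under 0.05. Among the tested members, Hdac2 was the brightest, with 804 as its mean over the 18 arrays, above 94.8% of probe sets. The Dnmt3a probe sets were dim, with means of 48.1 and 69.7, near the middle of all probe sets (48.4th and 55.2nd percentile). Brightness cannot be compared between probe sets as a level of RNA, because each binds its target differently.

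**Figure D1:**
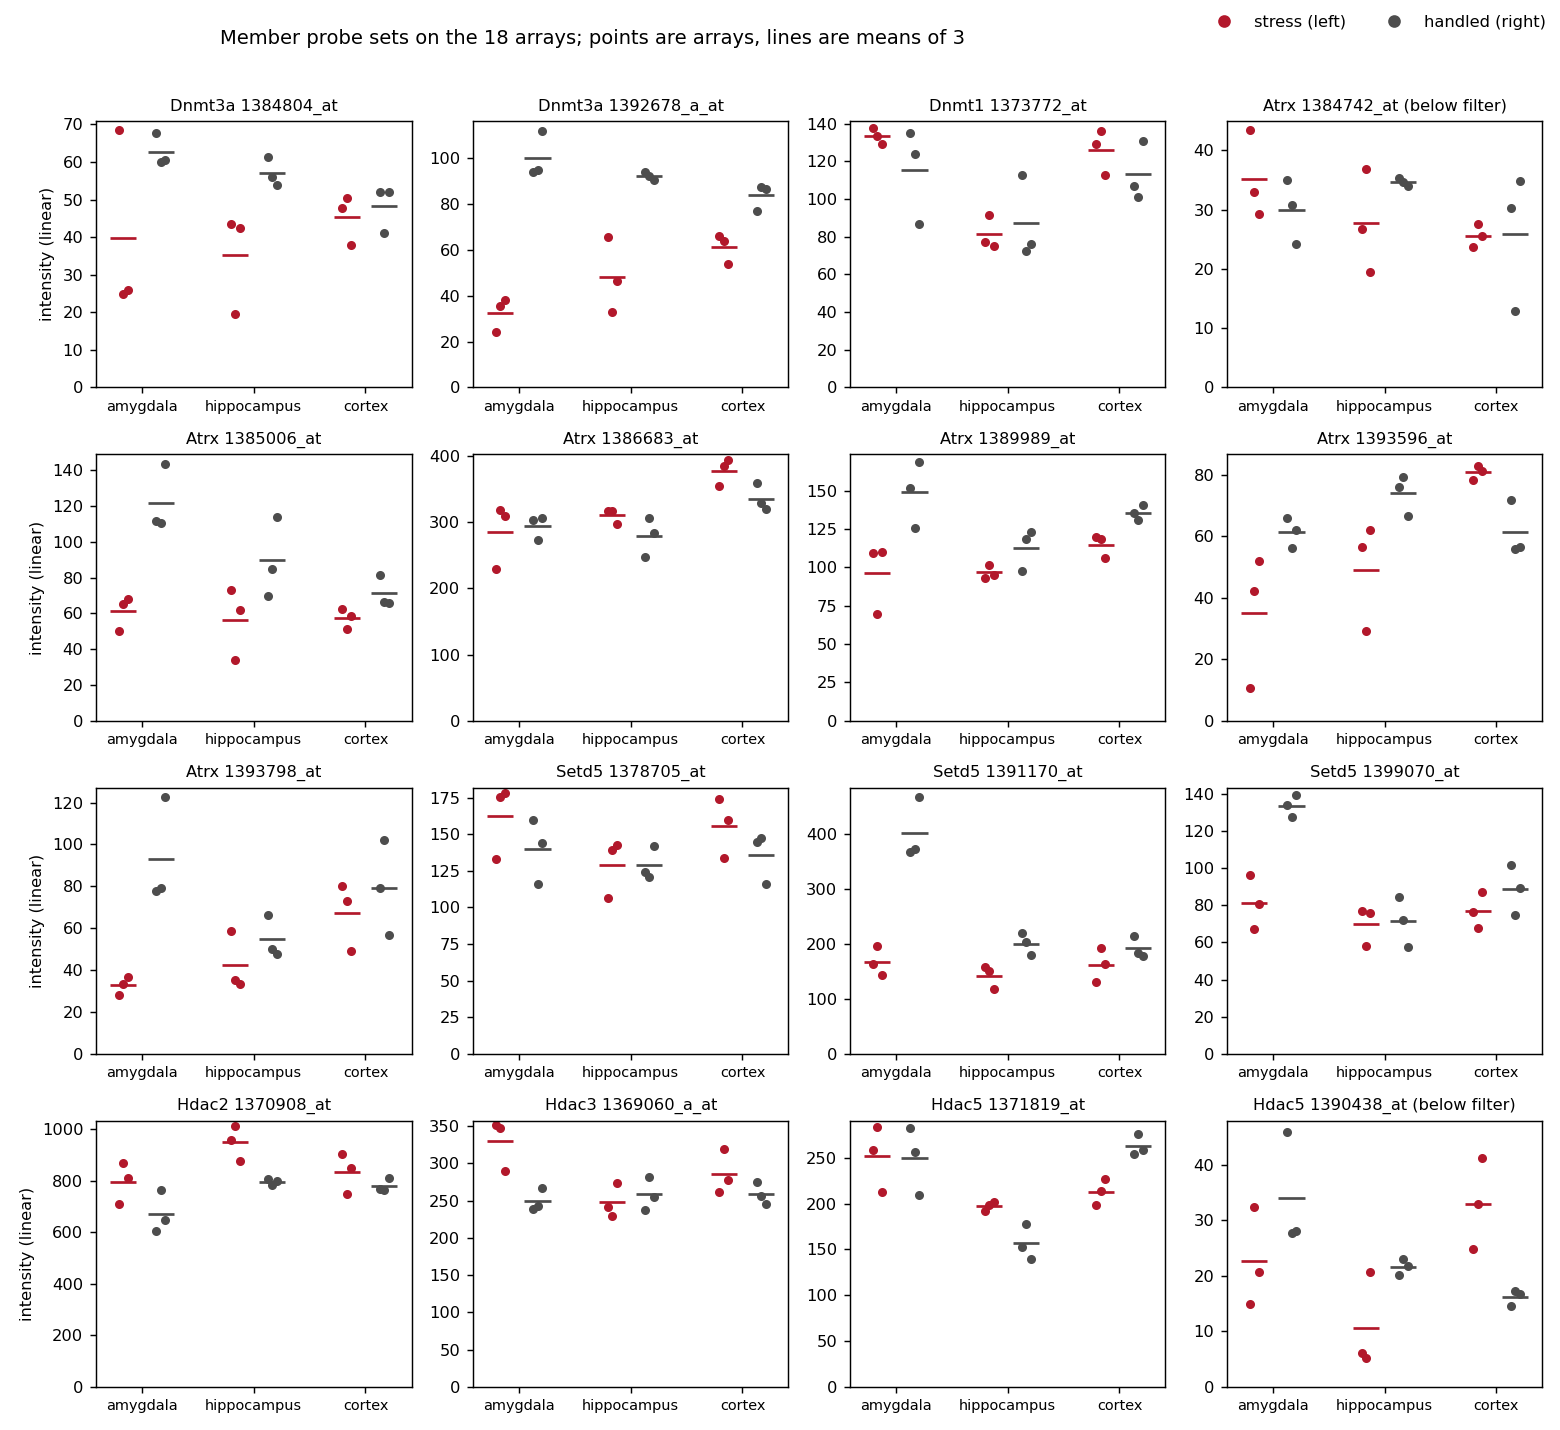
Intensity of the 16 member probe sets on a linear scale (vertical axis, arbitrary units) in 3 regions, with the 3 stress arrays left and the 3 handled arrays right in each region; lines are means of 3. The stress amygdala arrays lie below all handled amygdala arrays for 1392678_a_at of Dnmt3a, for 1391170_at and 1399070_at of Setd5 and for 4 of the 5 tested probe sets of Atrx.

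The arrays as a whole matched their titles in part. Array medians lay between 49.1 and 56.4. One label field named the amygdala for every array, and of 6 hippocampus markers measured, 5 were higher in hippocampus than in cortex and Wfs1 was lower. Some markers of regions and of other cells differed between stress and handled arrays. Neurod2, a neuronal transcription factor on the hippocampus list, was lower in stress amygdala (97.6 ± 15.8 against 169 ± 26.1, log2 difference -0.70, limma adjusted p = 0.0127), and Wfs1 was lower in stress hippocampus (-0.71, adjusted p = 0.000325). In the amygdala 2 of 11 striatal neuron markers were higher after stress (Ppp1r1b and Penk), with a summed intensity of 5417 to 5656 on stress arrays against 4235 to 4575 on handled arrays. In the cortex 7 of 9 meningeal fibroblast markers were lower, with sums of 2060 to 2141 after stress against 4709 to 4971 after handling. In the hippocampus 2 of 10 oligodendrocyte markers were lower (sums of 19310 to 21600 against 22784 to 25318), 1 of 9 meningeal markers was lower (1743 to 1822 against 2087 to 2245) and 2 of 4 choroid plexus markers were higher (3508 to 3729 against 1212 to 1329). Bright genes made up most of some sums. Ttr averaged 3410 in stress and 1102 in handled hippocampus, where the choroid plexus marker Aqp1 leaned the other way (35.4 against 58.8, not called). The meningeal marker Ptgds averaged 1395 in stress and 3056 in handled cortex. No marker was listed at 0 on any array, and none of 10 neuron, 8 astrocyte or 7 microglia markers was called in any region by limma. In such bulk samples fewer cells of a type and less RNA per cell cannot be told apart.

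Dnmt3a was lower on stress arrays than on handled arrays in all 3 regions on 1392678_a_at, and its other probe set was less regular. On 1392678_a_at the intensities were 24.1, 35.5 and 37.96 in stress amygdala, against 94.2, 94.9 and 112 in handled amygdala. The means were 32.5 ± 7.41 and 100.2 ± 9.92 (SD, n = 3 each), a log2 difference of -1.27 ± 0.17. The groups were far apart, and the lowest handled array was brighter than every stress array. In the hippocampus the same probe set read 65.8, 32.8 and 46.5 on stress arrays, against 93.8, 92.3 and 90.3 on handled arrays (-0.78 ± 0.17). The handled hippocampus arrays lay within a narrow band, and the stress arrays were spread below it. In the cortex the values were 66.1, 63.8 and 53.8 after stress, against 77.1, 87.6 and 86.7 after handling (-0.37 ± 0.17), again without overlap. This was the only member of the 14 tested that did not overlap in the same direction in all 3 regions. Of all probe sets tested, 0.741% were lower without overlap in all 3.

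The second probe set of Dnmt3a, 1384804_at, was dimmer. It read 68.4, 24.9 and 25.8 in stress amygdala, against 67.6, 60.1 and 60.6 in handled amygdala. One stress array was thus as bright as the handled ones while the other 2 lay far below them, and the log2 difference was -0.58 ± 0.24, not called. Without stress amygdala 1 the difference was -0.93 and was called. In the hippocampus the values were 43.5, 19.6 and 42.4 after stress, against 61.3, 56.0 and 53.8 after handling (-0.55 ± 0.24), without overlap and not called, and without stress hippocampus 2 the difference was -0.31. In the cortex both groups overlapped, with 47.6, 50.5 and 37.9 after stress and 52.1, 41.0 and 52.0 after handling (-0.07 ± 0.24).

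Dnmt1, with 1 probe set, showed little change with stress. It had 138, 133 and 129 in stress amygdala, against 135, 124 and 86.9 in handled amygdala (0.21 ± 0.16). Its log2 difference was -0.06 ± 0.16 in the hippocampus and 0.14 ± 0.16 in the cortex, and stress and handled arrays overlapped in all 3 regions. Whether Dnmt1 and Dnmt3a differed in their response was not tested.

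Setd5 was read by 3 probe sets that disagreed in the amygdala. On 1391170_at, the brightest, the intensities were 164, 196 and 143 in stress amygdala, against 367, 373 and 467 in handled amygdala (log2 difference -1.19 ± 0.14). On 1399070_at they were 96.4, 67.4 and 80.8 after stress, against 134, 128 and 139 after handling (-0.63 ± 0.15). Both probe sets separated the groups completely. The other one, 1378705_at, read 133, 175 and 178 after stress, against 160, 116 and 144 after handling (0.19 ± 0.14), so that it overlapped and leaned the other way. The 3 amygdala differences of this gene spanned 1.38 on the log2 scale. Over the 18 arrays 1391170_at and 1399070_at had a Pearson correlation of 0.78, and those of each with 1378705_at were -0.15 and -0.07, as a description over arrays that share the same 6 groups.

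Outside the amygdala Setd5 differed less. In the hippocampus 1391170_at read 158, 150 and 118 after stress, against 219, 203 and 179.8 after handling (-0.46 ± 0.14), without overlap, while 1399070_at (-0.02 ± 0.15) and 1378705_at (-0.01 ± 0.14) lay at about 0. In the cortex the 3 differences lay between -0.24 and 0.17, and all 3 overlapped.

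Atrx had the most probe sets, and in the amygdala all 5 that were tested lay below 0, by very unequal amounts, the one nearest to 0 turning positive without stress amygdala 1. On 1393798_at the intensities were 27.9, 33.4 and 36.5 in stress amygdala, against 77.9, 79.0 and 122 in handled amygdala (log2 difference -1.15 ± 0.21). On 1385006_at they were 49.9, 65.4 and 68.1 after stress, against 112, 110.3 and 144 after handling (-0.84 ± 0.19). On 1389989_at they were 109.7, 69.9 and 109.8, against 152, 126 and 169 (-0.57 ± 0.14). Stress and handled arrays did not overlap on any of these 3. The same held for 1393596_at, with 10.7, 42.1 and 51.9 after stress and 66.1, 56.3 and 62.2 after handling (-0.71 ± 0.25), which was not called. That difference was -0.30 without stress amygdala 1, and -0.97 and called without stress amygdala 3. The brightest probe set, 1386683_at, stood apart from the others, with 229, 319 and 310.1 after stress and 304, 273 and 307 after handling (-0.05 ± 0.10). Without stress amygdala 1 its difference was 0.09.

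In the hippocampus 4 of the 5 tested Atrx probe sets lay below 0 after stress, between -0.57 for 1385006_at and -0.19 for 1389989_at, and 1386683_at lay above 0 (0.15 ± 0.10). None was called, and only 1393596_at separated the groups, with 56.4, 29.0 and 61.9 after stress and 76.2, 79.3 and 66.7 after handling. In the cortex 1393596_at ran the opposite way, with 78.4, 83.0 and 81.2 after stress, against 71.8, 55.9 and 56.4 after handling (0.33 ± 0.25). There 1385006_at (-0.25 ± 0.19) and 1389989_at (-0.22 ± 0.14) were lower without overlap. Over the 18 arrays the pairs of Atrx probe sets had Pearson correlations between -0.18 and 0.70. The pair of 1389989_at and 1393798_at was highest, and that of 1385006_at and 1386683_at was lowest. The untested 1384742_at was dim throughout, between 12.9 and 43.4, and its stress and handled arrays overlapped in every region.

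The deacetylases differed from one another. Hdac3 had 351, 348 and 289 in stress amygdala, against 239, 242 and 267 in handled amygdala (log2 difference 0.38 ± 0.10). All 3 stress arrays exceeded all 3 handled arrays. The call was kept in 12 of 27 alternatives. It was lost with the replicate number as a block and in 5 of the 6 fits that left out an amygdala array (all but stress amygdala 3). Leaving out handled hippocampus 3, stress cortex 3 or any 1 handled cortex array lost it as well. In the hippocampus (-0.05 ± 0.10) and the cortex (0.13 ± 0.10) Hdac3 overlapped. Hdac2 had 957, 1012 and 878 in stress hippocampus, against 807, 781 and 800 in handled hippocampus (0.25 ± 0.09), without overlap. It was also above 0 in the amygdala (0.24 ± 0.09) and the cortex (0.09 ± 0.09), where the groups overlapped, and was called in none of the regions.

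Hdac5 differed in direction between regions on 1371819_at. It read 192, 199 and 202 in stress hippocampus, against 153, 178 and 140 in handled hippocampus (0.31 ± 0.11). In the cortex it read 198, 213 and 227 after stress, against 254, 276 and 259 after handling (-0.29 ± 0.11). Neither pair of groups overlapped, and neither was called. In the amygdala it was level (0.01 ± 0.11), with 259, 283 and 213 after stress and 283, 257 and 210 after handling. The untested 1390438_at did not follow it, with 24.8, 32.9 and 41.2 in stress cortex against 14.6, 17.2 and 16.8 in handled cortex, and with hippocampus values as low as 5.17 on a stress array.

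**Figure D2:**
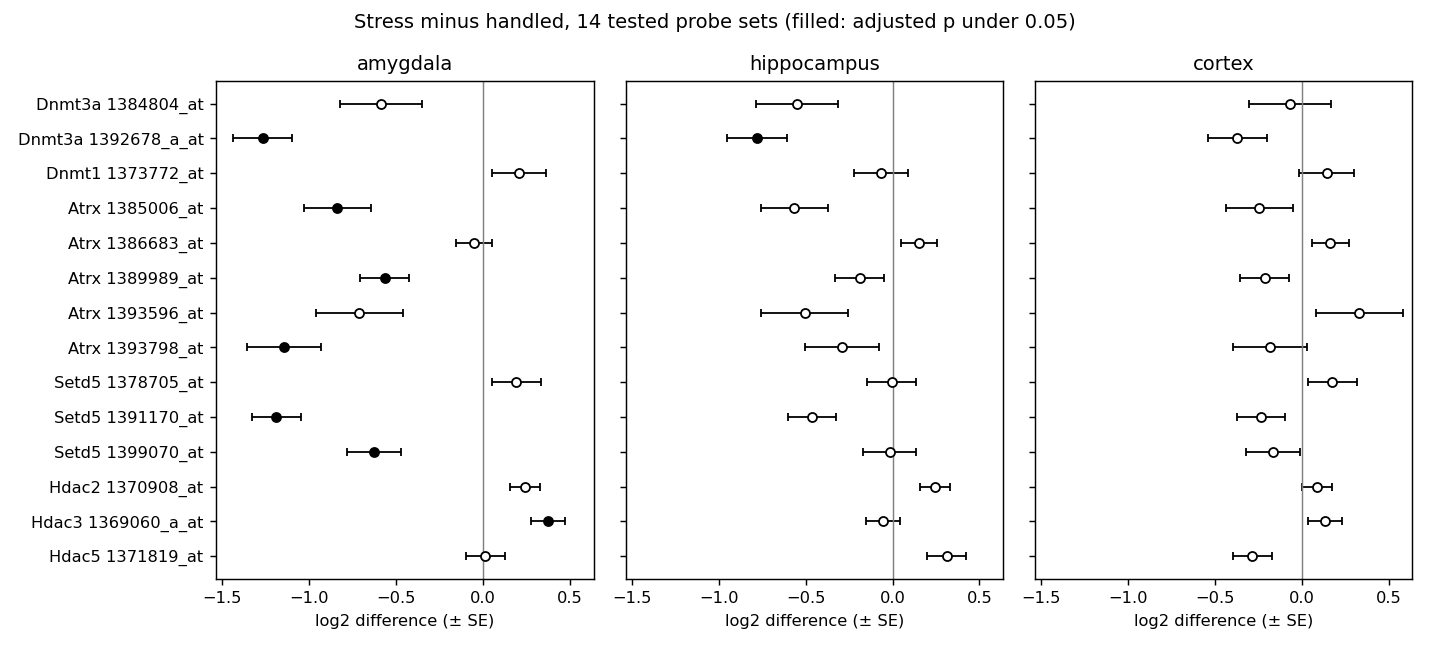
Log2 difference of intensity plus 16, stress minus handled (horizontal axis), for the 14 tested member probe sets in each region; bars are standard errors and filled points have an adjusted p under 0.05. The amygdala panel spans -1.27 to 0.38, and the cortex panel has no filled point.

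Counted over the 14 tested probe sets, 6 were called lower in the stress amygdala (1 of Dnmt3a, 3 of Atrx and 2 of Setd5) and 1 was called higher (Hdac3). Over all tested probe sets 1.94% were called lower and 0.456% higher. The members are taken to have been chosen by this same contrast, so the calls and shares are printed for scale and nothing is read from them. Without overlap, 7 members were lower and 1 was higher, against 8.46% and 8.13% of all. The median difference of the 14 was -0.58, against 0.01 over all probe sets. In the hippocampus 1 of 14 was called lower (all: 0.258%, and 0.360% in either direction), 4 were lower without overlap (7.06%) and 2 were higher without overlap (7.12%). In the cortex limma called none of the 14 (all: 0.403% in either direction, 0.268% lower), 2 had an unadjusted p under 0.05 (all: 10.2%), and 4 were lower (11.2%) and 1 was higher (12.1%) without overlap. Of the 14, 7 lay below 0 in all 3 regions, as did 16.9% of all tested probe sets. Differences between the regions in these stress effects were not tested.

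The count in the amygdala depended on single arrays. It was 3 without handled amygdala 3, and 4 without stress amygdala 2 or handled amygdala 1. The calls over all probe sets fell as well, from 447 to 197 without handled amygdala 3. The amygdala call of 1385006_at was lost without stress amygdala 1 or handled amygdala 3. That of 1389989_at was lost without stress amygdala 2, handled amygdala 1 or handled amygdala 3, and that of 1399070_at was lost without any 1 amygdala array other than stress amygdala 1. The call of Dnmt3a in the hippocampus was kept in 5 of 26. It was lost with the replicate block and without stress hippocampus 2 or 3 or any handled hippocampus array. Leaving out any 1 array of handled amygdala, stress cortex or handled cortex lost it as well. Over all probe sets the hippocampus calls fell from 67 to 27 without stress hippocampus 2. On the amygdala arrays the hexokinase control also had a larger log2 difference between its 3′ and 5′ probe sets, which widens as RNA degrades, after stress (1.23 ± 0.07 against 0.83 ± 0.08). There GAPDH had 0.45 on both sides, and beta-actin had 2.15 ± 0.24 against 2.07 ± 0.08. Hexokinase was larger after stress in the hippocampus (1.17 ± 0.15 against 1.02 ± 0.11) and the cortex (1.28 ± 0.12 against 1.11 ± 0.09) too. The part of the hexokinase shift in the differences, and that of the striatal markers, was not tested.

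The regions themselves were compared over all arrays. Each region mean gave stress and handled arrays equal weight, so that the comparison does not use the stress differences. Region differences given below for the handled or the stress arrays alone do bring the stress differences back. Those values are therefore a description. Whether the regional pattern played a part in the choice of genes is not recorded. The 3′ to 5′ differences of 2 controls also set the amygdala apart. Beta-actin had group means of 2.07 and 2.15 in amygdala, against 1.54 to 1.66 in the other regions. GAPDH had 0.45 in both amygdala groups, against 0.23 to 0.29. Hexokinase did not, with 0.83 and 1.23 in amygdala and 1.02 to 1.28 elsewhere. The part of these shifts in the regional differences was not tested. Between amygdala and cortex 4 of 14 member probe sets were called, 2 higher (Setd5) and 2 lower (Atrx), where 14.9% of all probe sets were called higher, 13.7% lower and 28.6% in either direction. Between hippocampus and cortex 4 were called, all lower in hippocampus, where 19.5% of all were called lower and 36.9% in either direction. Between amygdala and hippocampus 5 were called, 4 higher and 1 lower in amygdala, where 21.8% of all were called higher, 18.2% lower and 39.9% in either direction. In either direction combined the shares of members were near or below those of all probe sets, and by direction 4 of 14 was above the share of all for lower in hippocampus than cortex and for higher in amygdala than hippocampus.

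Hdac5 was lowest in the hippocampus. On 1371819_at its lowest, median and highest intensities over 6 arrays were 210, 258 and 283 in amygdala and 140, 185 and 202 in hippocampus (log2 difference 0.47 ± 0.08, limma adjusted p = 4.95e-05), with no overlap. In the cortex they were 198, 241 and 276, and the hippocampus was lower than the cortex by -0.40 ± 0.08 (adjusted p = 0.000328). That last difference was -0.70 in the handled arrays alone and -0.10 in the stress arrays alone, where it was not called. Amygdala and cortex did not differ beyond their spread.

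Dnmt1 followed the same order. Its lowest, median and highest intensities were 86.9, 131 and 138 in amygdala, 72.3, 76.6 and 113 in hippocampus and 101, 121 and 136 in cortex. The hippocampus was below the amygdala (amygdala minus hippocampus 0.49 ± 0.11, limma adjusted p = 0.00102) and below the cortex (hippocampus minus cortex -0.44 ± 0.11, adjusted p = 0.00261). Both calls were lost in the handled arrays alone, at 0.35 and -0.34. Hdac2 had the reverse order, with 603, 737 and 867 in amygdala and 781, 842 and 1012 in hippocampus (-0.25 ± 0.06, adjusted p = 0.00199), and this call held in every alternative run. Hdac3 was called between no regions, with medians of 278 in amygdala, 248 in hippocampus and 268 in cortex.

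Setd5 was highest in the amygdala, through the handled arrays. On 1391170_at the lowest, median and highest values were 143, 282 and 467 in amygdala, 118, 169 and 219 in hippocampus and 130, 180.2 and 214 in cortex. The amygdala exceeded the hippocampus by 0.58 ± 0.10 (limma adjusted p = 4.13e-05) and the cortex by 0.53 ± 0.10 (adjusted p = 0.000257). In the handled arrays alone these differences were 0.95 and 1.01, and in the stress arrays alone they were 0.22 and 0.05 and were not called. On 1399070_at the amygdala likewise exceeded the hippocampus (0.48 ± 0.11, adjusted p = 0.00105) and the cortex (0.29 ± 0.11, adjusted p = 0.0467), with 0.79 and 0.52 in the handled arrays alone and 0.17 and 0.06 in the stress arrays alone. The call against the cortex was kept in 13 of 29 alternatives. 1378705_at was called between no regions.

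Atrx was highest in the cortex on its brightest probe set. 1386683_at had lowest, median and highest intensities of 229, 306 and 319 in amygdala, 247, 302 and 318 in hippocampus and 321, 357 and 395 in cortex. Every cortex array was above every array of the other regions, and the cortex exceeded the amygdala (amygdala minus cortex -0.29 ± 0.07, limma adjusted p = 0.00465) and the hippocampus (hippocampus minus cortex -0.26 ± 0.07, adjusted p = 0.00618). In the handled arrays alone neither was called (-0.18 and -0.26), and in the stress arrays alone that with the hippocampus was not called (-0.27). 1393798_at was lower in hippocampus than in cortex (-0.47 ± 0.15, adjusted p = 0.0174), a call kept in 24 of 28 alternatives and lost in the handled arrays alone (-0.41), in the stress arrays alone (-0.52) and without stress cortex 1 or handled cortex 2. 1393596_at was lower in amygdala than in cortex (-0.51 ± 0.18, limma adjusted p = 0.0316). The difference was -1.04 in the stress arrays alone and 0.01 in the handled arrays alone, a split that contains the stress differences selected on. The call was kept in 18 of 28 alternatives. Among others it was lost in the handled arrays alone. It was also lost without stress amygdala 1, handled amygdala 2 or 3, any stress cortex array or handled cortex 1. The Atrx probe sets 1385006_at and 1389989_at were called between no regions. On 1385006_at the cortex was lowest, with medians of 89.2 in amygdala, 71.4 in hippocampus and 64.1 in cortex. On 1389989_at the medians were 118, 99.6 and 126. Dnmt3a was called between no regions on either probe set. On 1392678_a_at its medians were 66.1 in amygdala, 78.0 in hippocampus and 71.6 in cortex.

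**Figure D3:**
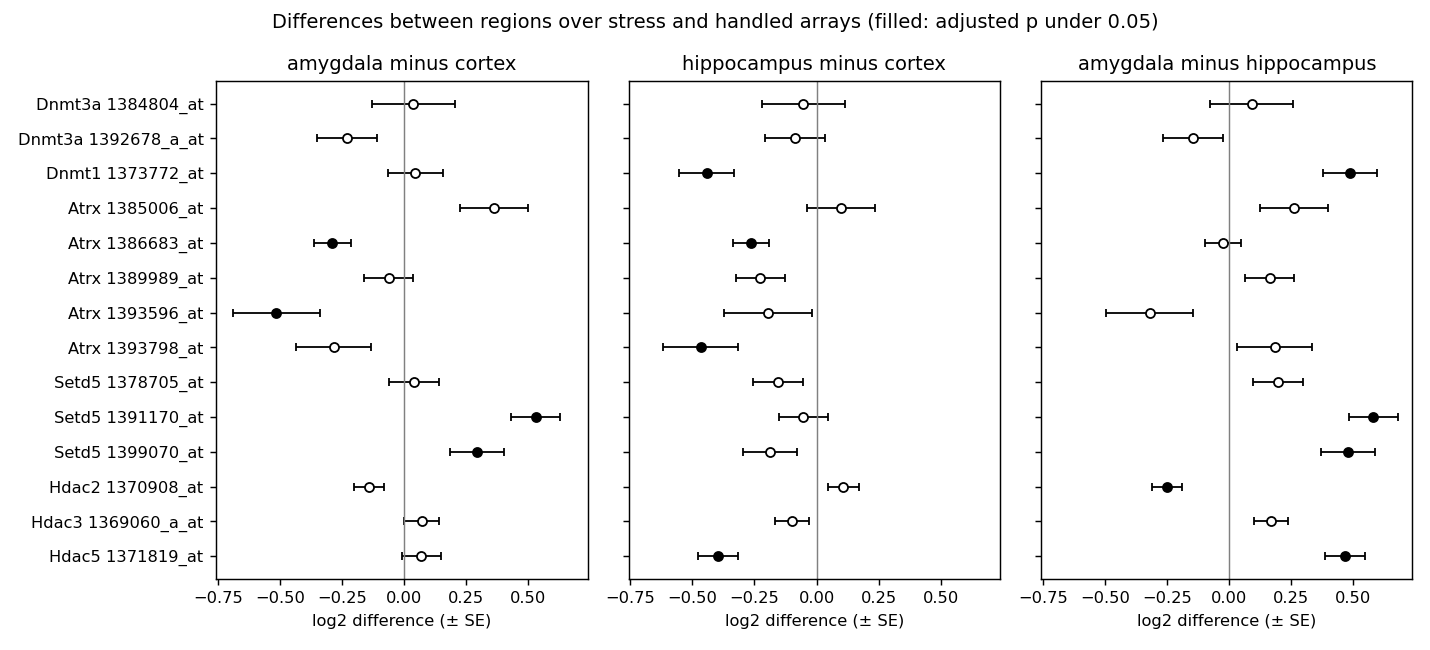
Log2 difference between regions, each over its 3 stress and 3 handled arrays (horizontal axis), for the 14 tested member probe sets; bars are standard errors and filled points have an adjusted p under 0.05. The differences lie between -0.51 and 0.58, and the hippocampus minus cortex panel has filled points at negative values only.

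The rest of the chromatin machinery was described through 7 lists of 140 genes, each gene read by its brightest probe set. Of these, 112 were tested. After stress 3 of the 112 were called in the amygdala, all lower, or 2.68%, where 2.40% of all probe sets were called, and 19 had an unadjusted p under 0.05 (all: 13.7%). The median of the 112 was 0.01, as over all probe sets. Nsd3, a histone H3 lysine 36 methyltransferase, had 213, 201 and 216 in stress amygdala, against 309, 324 and 309 in handled amygdala (log2 difference -0.55 ± 0.10, limma adjusted p = 0.00198). Its relative Nsd2 had 355, 434 and 385 after stress, against 504, 525 and 603 after handling (-0.46 ± 0.08, adjusted p = 0.00253). Cbx1, a heterochromatin protein of the HP1 family, had 337, 249 and 316 after stress, against 397, 409 and 497 after handling (-0.51 ± 0.11, adjusted p = 0.0105).

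These 3 genes also had probe sets that did not move with the called one. The other 4 probe sets of Nsd3 lay between -0.05 and 0.13, the other 3 of Nsd2 between -0.17 and 0.10, and the other one of Cbx1 at -0.02. In the hippocampus and in the cortex limma called none of the 112, and 9 in each had an unadjusted p under 0.05 (all: 10.9% in hippocampus and 10.2% in cortex). None of 14 genes of DNA methylation, 12 further deacetylases and sirtuins, 16 deacetylase complex subunits, 11 acetyltransferases or 14 demethylases was called after stress in any region. Tet2, Uhrf2, Hdac4, Hdac6 and Hdac11 were among them. Each of these genes was read by its brightest probe set only, so the result does not cover their other probe sets. The members were read by every tested probe set. Under the list rule Atrx would have been read at -0.05 in the amygdala, where its tested probe sets reached -1.15.

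**Figure D4:**
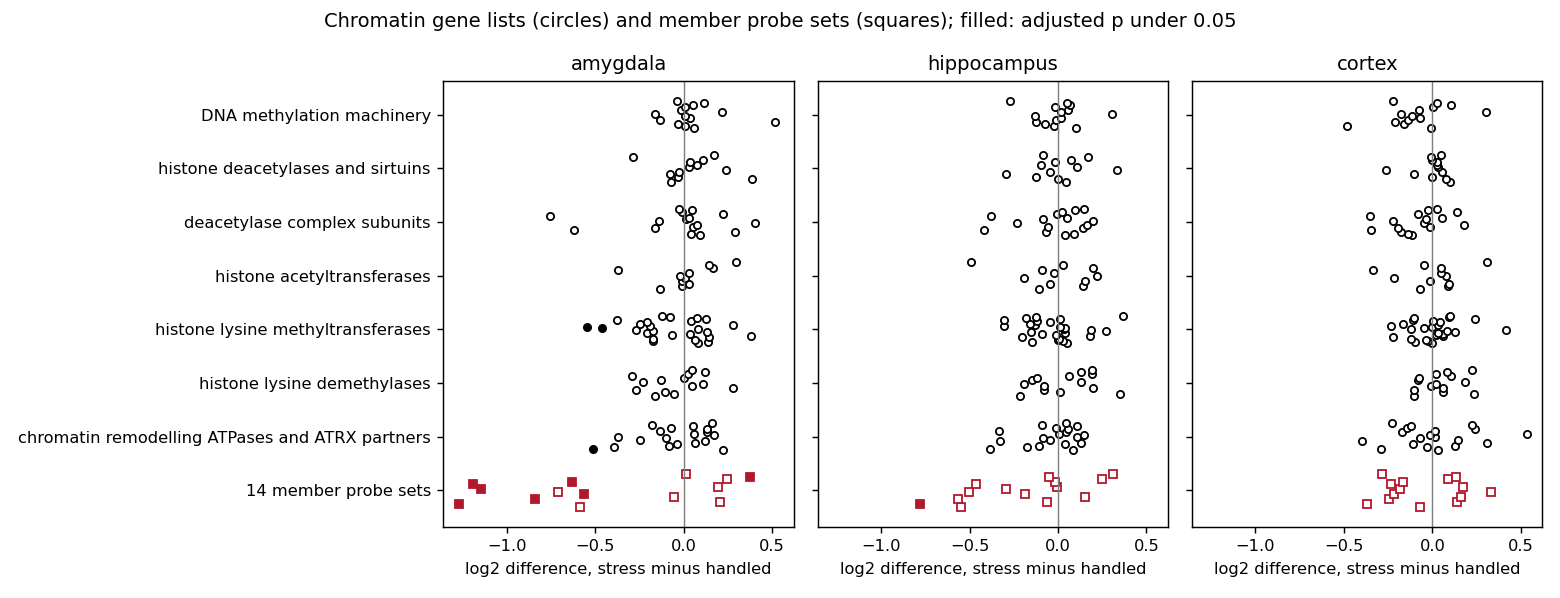
Log2 difference of intensity plus 16, stress minus handled (horizontal axis), for the tested genes of 7 chromatin lists (circles, 1 probe set per gene) and the 14 member probe sets (squares); filled marks have an adjusted p under 0.05. In the amygdala panel 3 circles are filled, and the member squares reach -1.27. Circles show only the brightest probe set of a gene and squares every tested member probe set, so their counts are not directly comparable.

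Between regions the same lists differed more. Of the 112 genes, 17 were higher and 8 lower in amygdala than in cortex, 12 higher and 18 lower in hippocampus than in cortex, and 25 higher and 9 lower in amygdala than in hippocampus. These are 22.3%, 26.8% and 30.4%, each below the share of all probe sets given above. Of 12 deacetylases and sirtuins, 3 were higher (all: 21.8%) and 2 lower (all: 18.2%) in amygdala than in hippocampus, with a median of -0.07. Hdac11, the single class IV enzyme, averaged 563 ± 21.8 in amygdala and 234 ± 63.3 in hippocampus (SD, n = 6 each, log2 difference 1.24 ± 0.10, limma adjusted p = 6.96e-10), and it was lower in hippocampus than in cortex as well (-1.02 ± 0.10). Hdac4, a class IIa enzyme like Hdac5, was higher in amygdala than in hippocampus (0.51 ± 0.10) and than in cortex (0.38 ± 0.10). Hdac6, a largely cytoplasmic deacetylase, showed the same (0.38 ± 0.07 and 0.29 ± 0.07). The 2 that were lower in amygdala than in hippocampus were the class I enzyme Hdac8 (-0.27 ± 0.10) and the mitochondrial sirtuin Sirt3 (-0.25 ± 0.05).

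Of 16 deacetylase complex subunits, 5 were higher (all: 21.8%) and 2 lower (all: 18.2%) in amygdala than in hippocampus. In hippocampus against cortex 2 were higher (all: 17.4%) and 3 lower (all: 19.5%). Tbl1x, a subunit of the Hdac3 complex, averaged 587 ± 28.8 in amygdala and 389 ± 35.6 in hippocampus (0.58 ± 0.06, limma adjusted p = 2.55e-08). Sin3b, a corepressor scaffold for class I deacetylases, differed by 0.58 ± 0.06 and Chd3, an ATPase of the NuRD complex, by 0.71 ± 0.08 between these regions. Gatad2a, another NuRD subunit, ran the other way (-0.38 ± 0.10). The demethylase Kdm7a was the most different of the list genes in favour of the hippocampus, with 154 ± 11.4 in amygdala and 299.96 ± 23.9 in hippocampus (-0.90 ± 0.07, adjusted p = 3.36e-10). The ISWI remodeller Smarca1 averaged 120.4 ± 14.8 in hippocampus and 231 ± 31.7 in cortex (-0.85 ± 0.08, adjusted p = 8.54e-09). Of 14 genes of DNA methylation, 4 were higher in amygdala than in hippocampus (all: 21.8%), among them Uhrf2 (0.33 ± 0.07) and the dioxygenase Tet2 (0.26 ± 0.08). The 2 that were lower (all: 18.2%) were the methyl-CpG binding protein Mbd2 (-0.22 ± 0.05) and Zbtb38 (-0.22 ± 0.07).

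For the brightest probe set of each member, the named genes with the most similar course over the 18 arrays were found by the root mean square difference of their centred log2 values. Nearest to Dnmt3a were Grin2b, an NMDA receptor subunit, at 0.19, and the nuclear pore gene Tpr at 0.22, against a median of 0.54 over all tested probe sets. Genes picked as nearest lie below such a median by construction, so the medians are given for scale only. Nearest to Setd5 were Pa2g4 (0.22) and Lsamp (0.22; median 0.53). For Atrx they were Xpo1 and Nup153, which act in nuclear export and the nuclear pore, at 0.08 and 0.09 (median 0.29). These were found for 1386683_at, the probe set that stood apart from the other tested Atrx probe sets. Those others were not compared in this way. Dnmt1 lay nearest to Rab11fip4 (0.14) and Wnk2 (0.15), Hdac2 to Pdk3 (0.09) and Snd1 (0.10), Hdac3 to Rufy1 (0.11) and Mrpl33 (0.11), and Hdac5 to Neurl1 (0.12) and Armcx2 (0.14). Members with little variation of their own come near to many genes by this measure. Their root mean square was 0.17 for Hdac3 and for Hdac2, and 0.18 for Atrx on 1386683_at.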

How the data were processed

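Total RNA of 3 brain regions from stressed and handled rats had been hybridised to 18 Affymetrix rat arrays. The authors deposited 1 linear intensity for each probe set on each array. Their summarisation software is not named in the labels or files used here. The deposited intensities had a 2% trimmed mean of 150.04 to 150.05 on all arrays, so they had been scaled to one level, and a shift common to most transcripts would not show. The number of arrays limits the precision.

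Groups came from the titles. Probe sets were named from the platform annotation, in which 20832 have 1 gene symbol, 436 have several and 9831 are unnamed here. After leaving out 57 control probe sets and those with a mean log2 value under the 40th percentile, 18625 remained. limma 3.58.1 in R 4.3.3 fitted 6 group means to log2 of intensity plus 16, with a variance trend (12 residual and 10.2 prior degrees of freedom). Tests were two-sided, adjusted by Benjamini-Hochberg over the 18625. The fit was tested on simulated data. A fold on this scale is smaller than the ratio of intensities for dim probe sets.

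Members, lists and the rule for named genes were chosen with earlier results of these data known. Named were the 7 members, the 2 nearest genes of each, up to 3 list genes per direction, list and contrast, and cell markers. Titles number the arrays of every group from 1 to 3. Deviations from the group means, not whole profiles, were correlated between arrays of the same number. These correlations lay between -0.03 and 0.01 for the 9 pairs of stress and handled arrays of 1 region. Over all 45 pairs, which include different regions of the same treatment, the correlations lay between -0.04 and 0.10. The numbers were therefore not used as pairs. Alternatives covered the offset, the filter, the scaling, the variance trend, the arrays fitted, the replicate block, the arrays behind a region mean and each array left out.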

Additional observations from a re-analysis of the deposited data

Results flagged for a closer look

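In 2 member probe sets stress and handled arrays separated completely in opposite directions in different regions. On 1393596_at of Atrx the stress arrays were all above the handled arrays in cortex and all below them in amygdala, a distance of 1.04 between the log2 differences. The same probe set was also all below in hippocampus, a distance of 0.84 between cortex and hippocampus. On 1371819_at of Hdac5 the stress arrays were all above in hippocampus and all below in cortex, a distance of 0.60. These differences between regions were not tested.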

How the results depend on the processing

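The counts of called members changed as follows. In the stress amygdala the count of 7 became 4 with no filter and 4 with only the amygdala arrays. It lay between 3 and 7 with 1 array left out. With the filter at the 60th percentile it was 4, because that filter leaves out 1392678_a_at of Dnmt3a and 1385006_at and 1393798_at of Atrx. The called probe sets that this filter keeps stayed called. Calls there over all probe sets lay between 197 and 535 with 1 array left out. In the hippocampus the count of 1 became 0 with an offset of 1, with no filter, with the filter at the 60th percentile (which leaves out Dnmt3a), with median centring, with quantile normalization, without the variance trend, with only the hippocampus arrays and with the replicate block, and was 0 or 1 with 1 array left out. In the cortex it was 0 in every alternative run. Between amygdala and cortex the count of 4 was 2 with no filter and 2 to 5 with 1 array left out. There the calls of Setd5 were lost in the stress arrays alone and those of Atrx in the handled arrays alone. Between hippocampus and cortex the count of 4 was 1 in the handled arrays alone, 1 in the stress arrays alone and 3 to 5 with 1 array left out. Between amygdala and hippocampus the count of 5 was 5 to 7 with 1 array left out. There the calls of Setd5 were lost in the stress arrays alone and that of Dnmt1 in the handled arrays alone. With the replicate block the stress amygdala count was 6 and the counts between regions were 5, 4 and 5. Among the called differences 1 turned, that of 1393596_at of Atrx between amygdala and cortex, at 0.0065 in the handled arrays alone. Among stress differences that were not called, 1386683_at of Atrx in amygdala was 0.09 without stress amygdala replicate 1, and some others near 0 also changed sign with 1 array left out. The size for dim probe sets depended on the offset: 1392678_a_at of Dnmt3a in amygdala was -1.62 with an offset of 1 and -0.77 with 64. The causes of these changes were not tested.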
